A study of Mus musculus with 2 samples.

Results

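The CC chemokine genes Ccl2, Ccl5, Ccl7, Ccl8, Ccl11 and Ccl19 were followed across the mesenchymal stromal cells (MSC) of grafted mouse intestine. These 6 genes were taken by symbol from the 28625 gene symbols of each count table, which hold 24 CC chemokine symbols in all by a rule of symbols with no threshold on values. Large intestine (LI) or small intestine (SI) from embryonic day 12.5 EYFP (C57BL/6) mice, which the study bred from EYFP males and C57BL/6Nrj females, was placed beneath the kidney capsule of adult WT mice, and the grafts were taken 4 weeks later. Live cells negative for CD45, Ter119, BP3, CD31, EpCAM and L1CAM and positive for Itgb1 and YFP were sorted. The YFP gate was meant to exclude cells of the host, and YFP was not checked in the counts here. Single-cell RNA-seq was run on 1 LI library and 1 SI library. Per the study's methods the colonic library pooled several grafts, and the number behind the SI library is not given in the sources used here.

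CC chemokines are small secreted proteins that draw leukocytes through G protein-coupled receptors. CCL2 and CCL7 recruit monocytes through CCR2, CCL8 acts on CCR8 in the mouse, CCL11 (eotaxin) recruits eosinophils through CCR3, CCL5 recruits T cells, NK cells and monocytes, and CCL19 guides naive T cells and dendritic cells through CCR7. In the gut, fibroblasts (FB) and perivascular cells are known sources of the monocyte chemoattractants and eotaxin, CCL5 is known mainly from T and NK cells and from interferon responses, and CCL19 is a product of the stroma of lymphoid tissue. BP3, the protein of Bst1, marks such lymphoid stroma, and the sort removed cells that carried it.

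After cells with under 500 genes or over 10% mitochondrial UMIs (unique molecular identifiers, 1 per captured transcript) were left out, 9873 LI cells and 7910 SI cells remained, with medians of 5288 and 5682 UMIs per cell, and the libraries had 26 cell barcodes in common. Cells were assigned to classes by how many of a fixed list of marker genes they contained, and no chemokine was in those lists. FB made up 7216 LI and 4974 SI cells and were divided into PDGFRAhi FB (514 and 269), adventitial-like FB that carry Pi16 and Dpp4 (532 and 230), Grem1 FB (1289 and 1808), Fgfr2 FB (2175 and 1168) and other FB (2706 and 1499). Pericytes (602 and 999), smooth muscle cells (SMC, 640 and 795) and interstitial cells of Cajal (ICC, 356 and 55) completed the 8 classes compared. The median pericyte had 6 of 8 pericyte markers in LI and 5 of 8 in SI, beside 5 and 4 of the 8 FB markers. Levels are given as CPM, the UMIs of a gene per 1000000 UMIs of all genes in a class, and intervals are exact 95% intervals that cover counting error only. With 1 library per segment no difference could be tested, a library holds many cells but 1 sample, and the kit was either a 3′ or a 5′ kit, with no statement of which library had which, so that segment, library and kit cannot be told apart.

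Of the 6 genes, 5 lie on chromosome 11 (GRCm38, GENCODE vM21). Ccl2 (ENSMUSG00000035385) spans chr11:82035571-82037453, Ccl7 (ENSMUSG00000035373) chr11:82045712-82047525, Ccl11 (ENSMUSG00000020676) chr11:82057823-82062955 and Ccl8 (ENSMUSG00000009185) chr11:82115185-82116799, all on the plus strand. The gaps between these neighbours are 8.258 kb from Ccl2 to Ccl7, 10.297 kb from Ccl7 to Ccl11 and 52.229 kb from Ccl11 to Ccl8. Ccl5 (ENSMUSG00000035042) lies on the minus strand at chr11:83525778-83530518, 1409 kb beyond Ccl8. Ccl19 (ENSMUSG00000071005) lies on the minus strand of chromosome 4 at chr4:42754525-42756577.

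Ccl19 has a near-identical copy that is counted under another name, and this bears on each Ccl19 value below. The copy, Gm2564, lies at chr4:42629719-42631714 on the plus strand. Its annotated coding sequence differs from that of Ccl19 at 1 of 324 bases (99.7% identity), the substitution T2C counted from the first coding base, and at 3 of the 208 bases that follow. The first 32 coding bases are shown because they hold that difference, in capitals:
Ccl19: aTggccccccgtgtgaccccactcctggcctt
Gm2564: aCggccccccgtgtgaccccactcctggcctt
Of the 895 stretches of 31 bases in Ccl19 transcripts, 526 (58.8%) also occur in Gm2564, and reads that match both equally are usually dropped from counts, so that Ccl19 and Gm2564 UMIs are uncertain and are given singly and summed. Such stretches also occur in Ccl19-ps3 (32.8%), Gm12407 (26.5%) and Ccl19-ps1 (22.6%), which have no counts here. Their effect on the Ccl19 counts and on the sum was not tested. A second feature named Ccl19, on the scaffold JH584294.1, had 0 UMIs in both libraries.

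The sequence ahead of Ccl19 is shown because this gene was seen with the interferon-inducible gene Cxcl9 in the same cells, as described below. RefSeq promoter windows (GRCm38.p6) of 250 bases were at hand for 2 of the 6 genes, Ccl8 and Ccl19, and were searched whole on both strands for 5 motifs. Of the Ccl19 window, the 72 bases before the first exon of a protein-coding Ccl19 transcript, chr4:42756544-42756615 on the minus strand, hold an interferon-stimulated response element (ISRE, GAAA, any 2 bases and GAAA), in capitals, whose last base lies 20 bases from that exon:
Ccl19: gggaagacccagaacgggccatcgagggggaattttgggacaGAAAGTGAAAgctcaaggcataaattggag
Counted from the start site of the RefSeq window, the match begins at -208. An annotated Ccl19 transcript that is not protein-coding begins further upstream and covers the match. This motif occurs in 2.98% of 32851 promoter windows of 250 bases, the length searched and not that shown. The Ccl8 window held a TATA motif (TATAAA, in 12.4% of windows), and neither window held the letters of NF-kB (GGG, any 2 bases and TTTCC, 1.41%), AP-1 (TGANTCA, 6.75%) or GAS (TTCNNNGAA, 7.02%). A match is a description of letters and not of a bound site.

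In the stroma of both grafts the 6 chemokines fell into distinct patterns over the classes. Ccl2 and Ccl7 were highest in adventitial-like FB or, for Ccl2 in SI, pericytes. Ccl11, Ccl5 and Ccl19 were highest in pericytes in both libraries, and Ccl8 was an FB gene with low levels in pericytes. In all, 4 of 6 genes (Ccl7, Ccl11, Ccl5 and Ccl19) had the same leading class in both grafts. With Leiden clusters in place of marker gates, Grem1 FB led Ccl2 in LI and Ccl7 in both libraries, and after thinning to 2000 UMIs per cell adventitial-like FB led Ccl2 in SI.

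**Figure D1:**
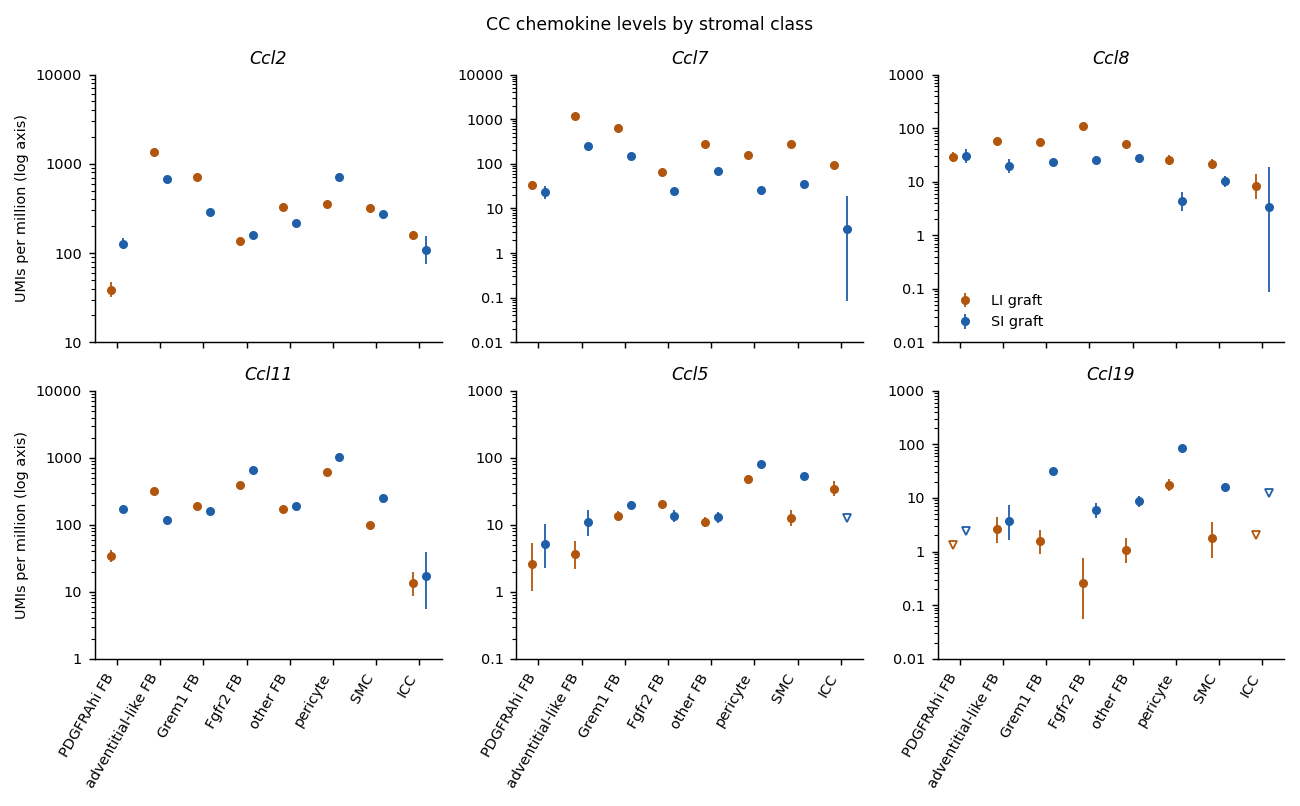
CC chemokine levels (CPM, log axes that differ between panels) in 8 stromal classes of the LI graft (orange) and SI graft (blue). Bars are exact 95% Poisson intervals for counting error and open triangles give the upper 95% limit where no UMI was counted. Ccl7 lies higher in the LI graft in each class, with overlapping intervals in PDGFRAhi FB. In that class 1 LI cell held 47 of 91 UMIs and the order turned without it (16.2 against 19.7 CPM without the highest cell of each library). Ccl19 lies higher in the SI graft in each class with UMIs in both, with overlapping intervals in adventitial-like FB. Summed with its copy Gm2564, adventitial-like FB had 37.9 CPM in LI and 8.53 CPM in SI, the reverse direction.

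Ccl2 encodes the main ligand of CCR2 on inflammatory monocytes. In LI its level was 1348 CPM in adventitial-like FB, 708 CPM in Grem1 FB, 350 CPM in pericytes, 330 CPM in other FB, 318 CPM in SMC, 159 CPM in ICC, 137 CPM in Fgfr2 FB and 39.0 CPM in PDGFRAhi FB. In SI the order was pericytes at 719 CPM, adventitial-like FB at 674 CPM, Grem1 FB at 291 CPM, SMC at 271 CPM, other FB at 217 CPM, Fgfr2 FB at 159 CPM, PDGFRAhi FB at 128 CPM and ICC at 109 CPM. The intervals of the SI pericytes and adventitial-like FB overlapped, and so did those of 2 further neighbouring pairs in SI and 3 in LI. The range from the highest to the lowest class was thus 33.7-fold in LI and 6.53-fold in SI. In SI, 1 ICC held 31 of the 32 Ccl2 UMIs of that class, and 1 PDGFRAhi FB held 101 of 196, without which these classes had 3.47 and 62.5 CPM. LI barcodes under 500 genes had 166 CPM (138 to 198) of Ccl2, above LI ICC, Fgfr2 FB and PDGFRAhi FB. The interval of these barcodes overlapped those of ICC and Fgfr2 FB. SI barcodes under 500 genes had 81.6 CPM, below each SI class. Without their highest cells, however, SI ICC and PDGFRAhi FB lay below that level. The part of free RNA in the Ccl2 values was not tested.

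Ccl7, whose gene lies next to Ccl2 and whose product shares CCR2, followed the same FB order but not the same pericyte level. Adventitial-like FB had 1192 CPM in LI and 255 CPM in SI, Grem1 FB had 650 and 153 CPM, and other FB had 278 and 68.9 CPM. Fgfr2 FB had 65.9 CPM in LI and 24.0 CPM in SI, and PDGFRAhi FB had 33.2 and 22.9 CPM. LI barcodes under 500 genes, with 75 Ccl7 UMIs, had a higher level than LI Fgfr2 FB, PDGFRAhi FB and ICC. These barcodes were also higher in LI than in SI, where they held 14 Ccl7 UMIs. The part of free RNA in the Ccl7 values was not tested. Pericytes had 154 CPM in LI but 25.5 CPM in SI, and SMC had 271 and 35.8 CPM. Ccl7 was therefore at a low level in the SI class in which Ccl2 was highest.

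This divergence is seen most directly in the ratio of the UMIs of both genes, which does not depend on the total of a class. In LI, Ccl2 UMIs per Ccl7 UMI were 1.13 in adventitial-like FB, 1.09 in Grem1 FB, 1.18 in PDGFRAhi FB, 1.19 in other FB and 1.17 in SMC, with higher values of 2.08 in Fgfr2 FB and 2.27 in pericytes, whose intervals overlapped. In SI, the ratio was 1.90 in Grem1 FB, 2.64 in adventitial-like FB, 3.15 in other FB, 5.6 in PDGFRAhi FB, 6.61 in Fgfr2 FB and 7.57 in SMC, and reached 28.2 (24.0 to 33.3) in pericytes. Each of these SI classes lay above its LI counterpart. In PDGFRAhi FB this rested on single cells, since without the highest cells of both genes the ratio was 1.93 (1.33 to 2.85) in LI and 3.17 (2.08 to 4.95) in SI, which overlap. ICC had a ratio of 1.74 in LI and are left out here, since their SI value rests on 1 Ccl7 UMI. Barcodes with under 500 genes, whose makeup of free RNA and poor cells was not tested, had ratios of 1.67 in LI and 5.43 in SI.

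**Figure D2:**
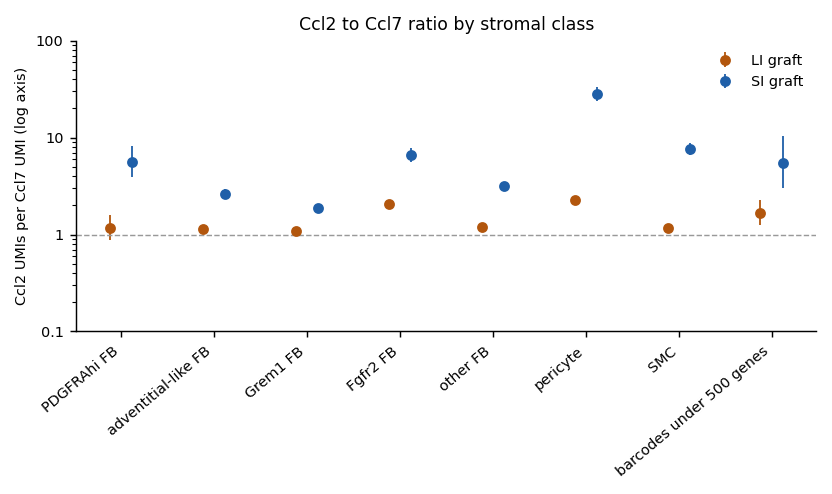
Ccl2 UMIs per Ccl7 UMI (log axis) by stromal class other than ICC and in barcodes under 500 genes, for the LI graft (orange) and SI graft (blue), with exact 95% intervals for counting error and a dashed line at equal counts. LI values lie between 1.09 and 2.27, and SI values, ICC left out, between 1.90 and 28.2.

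Ccl8, a CCR8 ligand in the mouse, was led by Fgfr2 FB in LI, unlike the other members. It had there 108 CPM in Fgfr2 FB, 56.3 CPM in adventitial-like FB, 55.1 CPM in Grem1 FB, 51.6 CPM in other FB and 29.2 CPM in PDGFRAhi FB. In SI the 5 FB classes lay between 19.9 CPM in adventitial-like FB and 30.7 CPM in PDGFRAhi FB, with overlapping intervals between all neighbours in that order, so that no SI class led beyond counting error. Pericytes had 25.4 CPM in LI and 4.31 CPM in SI, SMC had 21.6 and 10.2 CPM, and ICC had 8.39 and 3.42 CPM. The few immune cells of the libraries (48 and 33 cells) had 328 CPM of Ccl8 in LI and 100.1 CPM in SI. Barcodes under 500 genes had 47.8 and 18.2 CPM, close to the FB levels, and the part of free RNA in the FB values was not tested.

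Ccl11, which encodes eotaxin, was detected in a larger share of FB and of pericytes than any of the other 5 genes, and its highest level was in pericytes. Pericytes had 622 CPM (596 to 649) in LI and 1018 CPM in SI, and Fgfr2 FB came next with 391 and 649 CPM. The remaining FB classes had 34.3 CPM (PDGFRAhi), 172 CPM (other), 193 CPM (Grem1) and 324 CPM (adventitial-like) in LI, and 118 CPM (adventitial-like) to 193 CPM (other) in SI. SMC had 100.3 CPM in LI and 252 CPM in SI, and ICC had 13.4 and 17.1 CPM. ICC were the lowest class in both libraries, below the barcodes under 500 genes (58.4 and 83.7 CPM).

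At a common depth of 2000 UMIs per cell, 40.3% of LI pericytes and 49.8% of SI pericytes had a Ccl11 UMI, against 19.0% and 20.01% of FB and 1.73% and 1.96% of ICC. Before thinning, the median UMI counts were 4640.5 and 4715 in pericytes, 5263 and 5773 in FB, and 4303 and 4627 in ICC, and the unthinned Ccl11 share in FB was 27.0% in LI and 29.7% in SI. Relative to Ccl2, Ccl11 changed sides between FB classes. There were 2.85 Ccl11 UMIs per Ccl2 UMI in LI Fgfr2 FB and 4.08 in SI Fgfr2 FB, but 0.241 and 0.175 in adventitial-like FB. Pericytes had 1.78 and 1.42.

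Ccl5, a chemoattractant of T cells and monocytes, was low in the stroma and held by few cells. Its highest stromal level was in pericytes, at 47.9 CPM in LI and 80.1 CPM in SI. LI ICC followed with 34.7 CPM, which came from 62 UMIs in 2 cells, whereas SI ICC had no UMI. SMC had 12.7 and 53.9 CPM, Fgfr2 FB had 20.2 and 13.8 CPM, Grem1 FB had 13.5 and 19.8 CPM, and PDGFRAhi FB had 2.55 and 5.22 CPM. In LI, 1 Fgfr2 FB held 183 of the 230 Ccl5 UMIs of its class and 1 pericyte 92 of 162, and without these cells the classes had 4.13 and 20.8 CPM. The immune cells, although few, had 869 CPM in LI and 3438 CPM in SI. In LI the leading class depended on the processing: ICC led after thinning, as a mean over cells and without cells that had an immune gate marker, and Grem1 FB led in Leiden clusters and without the 1% of cells with the most Ccl5. Within female cells Grem1 FB led in both libraries.

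The pericytes with at least 2 Ccl5 UMIs had no counted transcript of the listed T and NK markers. In LI, 8 of 602 pericytes held 97.5% of the Ccl5 UMIs of the class, and in SI 27 of 999 held 95.4%. The T and NK marker list (Cd3e, Cd3d, Cd3g, Trbc2, Nkg7, Gzma, Gzmb and Il2rb) had 0 UMIs in both sets of cells. Cxcl9, an interferon-gamma target, had 5397 CPM in the 8 LI cells against 150 CPM in pericytes without Ccl5, and 14756 CPM against 1213 CPM in SI. Cells with Ccl5 were also deeper, with medians of 9605.5 against 4623.5 UMIs in LI and 11170 against 4584 in SI, and the part of depth was not tested.

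Ccl19, the CCR7 ligand of lymphoid stroma, was the lowest of the 6 genes in LI FB and was highest in pericytes. Pericytes had 17.5 CPM in LI and 86.1 CPM in SI, and Grem1 FB had 1.54 CPM in LI and 32.0 CPM in SI. SMC had 1.78 and 15.9 CPM, other FB 1.09 and 8.69 CPM, Fgfr2 FB 0.263 and 5.89 CPM, and adventitial-like FB 2.68 and 3.79 CPM. No Ccl19 UMI was counted in PDGFRAhi FB, ICC or immune cells of either library. The barcodes under 500 genes had 5.31 CPM in LI, from 4 UMIs, and 3.22 CPM in SI, so that LI FB lay below this level.

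With the copy Gm2564 included, pericytes no longer led in LI beyond counting error. In LI FB there were 48 Ccl19 UMIs and 400 Gm2564 UMIs, and in LI pericytes 59 and 58. In SI the corresponding counts were 544 and 829 in FB and 519 and 256 in pericytes, so that Gm2564 UMIs per Ccl19 UMI ranged from 0.493 in SI pericytes to 20 in LI Fgfr2 FB. Summed over both features, LI adventitial-like FB had 37.9 CPM (32.8 to 43.6) and pericytes 34.6 CPM (28.6 to 41.5), which overlap, in place of 2.68 and 17.5 CPM. In SI the sum left pericytes first with 129 CPM and Grem1 FB second with 78.2 CPM.

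**Figure D3:**
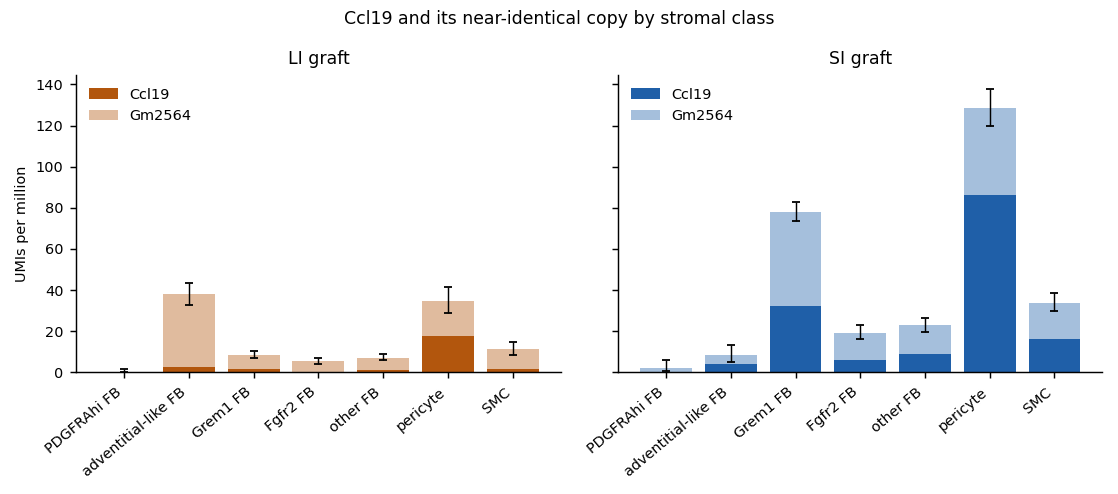
Level of Ccl19 (dark) and Gm2564 (light) as stacked bars (CPM) by stromal class in the LI and SI grafts, with the exact 95% interval of the sum for counting error. Gm2564 makes up most of the sum in LI adventitial-like FB (35.2 of 37.9), and Ccl19 most of the sum in SI pericytes (86.1 of 129).

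In the pericytes that held Ccl19, Ccl21a was also present. In SI, 34 of 999 pericytes held 95.8% of the Ccl19 UMIs, and these cells had 755 CPM of Ccl21a, also a CCR7 ligand, against 4.64 CPM in pericytes without Ccl19. In LI, 9 of 602 pericytes with at least 2 Ccl19 UMIs had 225 CPM of Ccl21a against 1.22 CPM. Cxcl13, a B cell chemoattractant of the same list, did not follow, with 0 CPM in these LI cells against 13.1 CPM in pericytes without Ccl19 and 3.67 against 1.25 CPM in SI. Bst1, which encodes the BP3 antigen of the sort, was at 0.138 CPM in LI FB and 0.0639 CPM in SI FB. The lymphoid stroma list as a whole (Ccl21a, Cxcl13, Il7, Bst1, Madcam1, Tnfsf11, Cr2 and Tnfsf13b) summed to 24.0 CPM in LI pericytes and 53.1 CPM in SI pericytes, against 40.6 and 56.9 CPM in FB. Ccl21a is itself an annotated duplicate, with features on chromosome 4 and on the scaffold JH584294.1.

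Pericytes were next compared with all FB within each library, with a gene counted as different where the ratio passed 2-fold on the scale of CPM plus 1. In LI, Ccl11, Ccl5 and Ccl19 were at least 2-fold higher in pericytes (3 of 6, against 7.84% of the 9039 genes of at least 10 CPM in either class). In SI, Ccl2 joined them (4 of 6, against 8.86% of 9034 genes). The log2 ratios were 1.35 and 1.92 for Ccl11, 1.85 and 2.29 for Ccl5, 3.13 and 2.24 for Ccl19, and -0.43 and 1.45 for Ccl2 in LI and SI. Ccl7 (-1.39 and -2.01) and Ccl8 (-1.35 and -2.30) were lower in pericytes in both. The LI call for Ccl5 depended on 1 pericyte with 92 of 162 UMIs: without it the log2 ratio was 0.68, under 2-fold, and without the highest cell of pericytes and of FB it was 1.21. In female cells Ccl5 was not higher in pericytes, with 1.96 CPM against 3.57 CPM in FB in LI and 1.30 against 7.29 CPM in SI. The medians of the 6 genes were 0.46 in LI and 1.68 in SI, where all genes had 0.11 and 0.14.

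PDGFRAhi FB, the subepithelial fibroblasts that make BMP ligands, carried less of most of these chemokines than the remaining FB. In LI, all 5 genes that reached 10 CPM were at least 2-fold lower there than in the remaining FB (5.02% of 8971 genes were), with log2 ratios of -3.65 for Ccl2, -3.66 for Ccl7, -2.88 for Ccl11, -2.01 for Ccl5 and -1.21 for Ccl8. In SI, Ccl2 (-1.07), Ccl7 (-2.22) and Ccl5 (-1.46) were lower past 2-fold, as was Ccl19 with 0 UMIs against 18.3 CPM, which makes 4 of 6 (6.27% of 9148 genes). Ccl8 did not follow in SI, with 30.7 against 24.8 CPM and a log2 ratio of 0.30 whose interval (-0.14 to 0.71) held 0. Ccl11 had -0.68 in SI.

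The LI graft was then compared with the SI graft in all FB. Ccl7 had 405 CPM in LI and 106 CPM in SI, a log2 ratio of 1.93 (1.87 to 1.98). Ccl8 had 66.3 and 25.1 CPM, a log2 ratio of 1.37 (1.26 to 1.48), and Ccl2 had 473 and 263 CPM, a log2 ratio of 0.85. Ccl19 was the gene higher in SI, with 1.10 CPM in LI and 17.4 CPM in SI (log2 ratio -3.13, -3.37 to -2.87), while Ccl11 (244 and 268 CPM, -0.14) and Ccl5 (12.6 and 15.6 CPM, -0.28) stayed within 2-fold. For Ccl5, 1 LI cell held 183 of 549 UMIs, and the log2 ratio was -0.73 without the highest cell of each library and -0.86 in female cells. Thus Ccl7 and Ccl8 passed 2-fold towards LI (2 of 6, against 1.86% of 8598 genes) and Ccl19 towards SI (1 of 6, against 1.61%). Ccl19 was not counted in female FB, where its 0.957 and 5.04 CPM lay under 10 CPM, or without the 1% of cells with the most UMIs. In male FB the genes past 2-fold towards LI were Ccl2 (1.86) and Ccl7 (2.96), and Ccl8 was not (53.4 against 34.0 CPM, 0.64). Over all FB the median of the 6 genes was 0.35 beside 0.0072 for all genes. With Gm2564 added, Ccl19 had 10.3 and 43.9 CPM, a log2 ratio of -1.99 (-2.14 to -1.85). The same direction was found for Gm2564 alone, at -1.43. Adventitial-like FB went the other way, with 35.2 CPM of Gm2564 in LI and 4.74 CPM in SI, and a sum of 37.9 against 8.53 CPM.

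The share of cells with a UMI did not follow the pooled level for Ccl2. At 2000 UMIs per cell, 11.0% of LI FB and 12.9% of SI FB had Ccl2, although the pooled level was higher in LI, whereas for Ccl7 the shares were 11.1% and 6.11%, and for Ccl8 7.73% and 3.1%. The highest single FB cell had 400 Ccl2 UMIs in LI and 154 in SI, and the 1% of FB with the most Ccl2 held 47.6% and 39.2% of its UMIs. For Ccl11 this share was 24.1% and 21.6%, the lowest of the 6 genes, and for Ccl5 it was 91.4% and 65.3%. When each cell was thinned to 2000 UMIs, the Ccl2 log2 ratio was 0.22 in place of 0.85.

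The LI to SI difference was not uniform over the classes. Ccl7 was higher in LI in adventitial-like FB (log2 ratio 2.22), Grem1 FB (2.08), Fgfr2 FB (1.42), SMC (2.89) and pericytes (2.55). The LI Fgfr2 FB levels of Ccl7 and Ccl2 lay below those of LI barcodes under 500 genes, for Ccl2 with overlapping intervals. Ccl2 was higher in LI in Grem1 FB (1.28) and adventitial-like FB (0.9998) but lower in Fgfr2 FB (-0.21) and pericytes (-1.04). Within Grem1 FB the sexes differed in direction, with 1537 CPM in LI and 401 CPM in SI in male cells but 106 and 217 CPM in female cells. Ccl11 was higher in LI adventitial-like FB (1.45) and lower in LI Fgfr2 FB (-0.73), pericytes (-0.71) and SMC (-1.32). Since the FB of LI held relatively more Fgfr2 FB and those of SI more Grem1 FB, the pooled FB ratio mixed these classes in different shares.

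In pericytes, Ccl7 (154 and 25.5 CPM) and Ccl8 (25.4 and 4.31 CPM) were at least 2-fold higher in LI (2 of 6, against 2.16% of 8869 genes). The Ccl8 levels of both lie below those of the barcodes under 500 genes (47.8 and 18.2 CPM). Neither Ccl8 level therefore stands above those barcodes, whose makeup was not tested. Ccl2 (350 and 719 CPM) and Ccl19 (17.5 and 86.1 CPM) were at least 2-fold higher in SI (2 of 6, against 1.79%). The pericyte Ccl7 difference was not seen in female cells. Of the 521 LI pericyte Ccl7 UMIs, however, cells called male held 100 and those called female 80. Among the 26 LI pericytes with at least 2 Ccl7 UMIs, 14 could not be called. These 26 cells had a median of 11611.5 UMIs, against 4535 in pericytes without Ccl7, and the part of depth was not tested. In pericytes called female, Ccl7 had 31.3 CPM in both libraries, a log2 ratio of 0.00 (-0.46 to 0.47), while Ccl8 (1.91), Ccl2 (-1.79) and Ccl19 (-2.40) kept their directions there. In male pericytes (48 in LI, 294 in SI) the ratio was -0.74 for Ccl2 and -0.01 for Ccl19, so that neither passed 2-fold, and all 17 LI Ccl19 UMIs were in 1 cell. The Ccl7 UMIs were also concentrated by MHC class II genes, since 27 LI pericytes positive for them held 374 of 521 UMIs (1306 CPM against 48.7 CPM in negative pericytes), and in SI the levels were 82.4 and 21.2 CPM. For Ccl2 the same 27 cells held 597 of 1184 UMIs (2084 against 191 CPM), but in SI the levels were 764 and 719 CPM. The LI negative pericytes lay below LI other FB and SMC in Ccl2. The median of the 6 genes in pericytes was -0.72, where all genes had 0.0045.

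Some fibroblasts of both grafts carried transcripts of MHC class II, the antigen presentation genes that interferon-gamma is known to induce. FB with at least 3 of Cd74, H2-Aa, H2-Ab1, H2-Eb1 and Ciita made up 8.36% of LI FB (603 cells) and 12.3% of SI FB (610 cells). In LI, these cells had 1217 CPM of Ccl2 against 353 CPM in MHC class II negative FB, 1078 against 293 CPM of Ccl7, and 31.6 against 9.23 CPM of Ccl5, where the negative level was 4.02 CPM without 1 cell. Those 3 genes passed 2-fold, of the 5 that reached 10 CPM (2.85% of 8678 genes did), while Ccl8 was at 62.6 and 62.4 CPM and Ccl11 at 190.5 and 254 CPM. In SI, Ccl7 (227 against 77.3 CPM), Ccl8 (59.6 against 16.4 CPM), Ccl5 (49.3 against 5.68 CPM) and Ccl19 (82.6 against 2.80 CPM) passed 2-fold, which makes 4 of 6 (2.04% of 8576 genes), and Ccl2 had 408 against 211 CPM. Ccl7 and Ccl5 were thus the genes past 2-fold in both libraries. Ccl11 was lower in MHC class II positive FB in both, with log2 ratios of -0.41 and -0.81. The medians of the members were 1.67 in both libraries, where all genes had -0.079 in LI and -0.10 in SI.

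Immune transcripts moved with this split and are given beside it. The 8 macrophage markers (Csf1r, Adgre1, C1qa, C1qb, C1qc, Lyz2, Mrc1 and Cd68) summed to 118 CPM in LI and 128 CPM in SI MHC class II positive FB, against 45.7 and 38.9 CPM in negative FB, and to 6343 and 1302 CPM in the immune cells. The 8 immune gate markers summed to 45.5 and 60.5 CPM against 17.5 and 15.7 CPM, and to 5694 and 2899 CPM in immune cells. Positive FB were also deeper, with medians of 8801 and 8279 UMIs against 5074 and 5519.5. The part of these in the chemokine values was not tested. Without the cells that had a UMI of an immune gate marker, the log2 ratio of positive over negative FB was 1.92 for Ccl2, 2.07 for Ccl7 and 1.74 for Ccl5 in LI, and 1.74 for Ccl7, 1.56 for Ccl8, 2.94 for Ccl5 and 4.76 for Ccl19 in SI, in each case still past 2-fold. Within cells called female the Ccl7 ratio in SI was -0.15, and the pooled difference was not seen. The levels were 51.1 CPM (37.5 to 67.9) in positive and 56.9 CPM (53.1 to 60.9) in negative FB, which overlap. Within cells of 1 sex fewer genes passed 2-fold in both libraries: Ccl5 in female FB and none in male FB.

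The MHC class II split was entangled with the called sex of the cells. Cells were called male or female from 4 Y-linked genes and Xist. Male and female donor cells came from different embryos, and the study reports sorts that were not fully pure. YFP was not checked in the called cells, so that sex, embryo and host origin cannot be told apart. Among FB called male, 43.6% in LI and 27.6% in SI were MHC class II positive, against 3.08% and 4.61% of those called female. FB called male were deeper, with medians of 8478 against 5137 UMIs in LI and 7837 against 5363 UMIs in SI. Both calls rest on detected UMIs, and the part of depth was not tested. A further 655 LI and 930 SI FB could not be called. Male cells made up 8.92% of the sexed FB in LI and 28.7% in SI, and in LI they were 27.6% of Grem1 FB but 1.48% of Fgfr2 FB. In LI, male FB had 1303 CPM of Ccl2 and female FB 299 CPM, and for Ccl7 the levels were 1164 and 247 CPM. In SI the difference was smaller, with 359 against 193 CPM of Ccl2 and 149 against 58.4 CPM of Ccl7. Ccl11 was within 2-fold between the sexes in FB as a whole, with 262 and 232 CPM in LI and 215 and 288 CPM in SI.

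Splitting FB by both properties separated the genes. Ccl2 in LI had 1465 CPM in male MHC class II positive FB, 1190 CPM in male negative, 639 CPM in female positive and 284 CPM in female negative FB, and in SI the same groups had 441, 295, 229 and 184 CPM. In LI, Ccl2 therefore ordered first by sex and then by MHC class II, as did Ccl7, at 1368, 1001, 492 and 232 CPM. The SI order of Ccl2 was the same, but its last step rested on 1 cell. This female positive cell held 43 of 211 UMIs, and without it the levels were 183.6 CPM in female positive and 183.7 CPM in female negative FB. Ccl7 in SI had 246, 102, 51.1 and 56.9 CPM in the same groups. Ccl19 in SI was higher in MHC class II positive FB of either sex, with 95.02 CPM in male positive and 57.6 CPM in female positive FB against 4.77 and 1.78 CPM in the negative ones. Of the 53 UMIs of the female positive FB 1 cell held 43, and without it their level was 10.9 CPM. Ccl5 in SI was likewise highest in male positive FB, with 51.9 CPM, then female positive FB with 15.2 CPM, and had 3.71 and 6.28 CPM in male and female negative FB. Ccl8 in SI had 58.0 and 49.97 CPM in positive FB against 20.3 and 15.1 CPM in negative FB, whereas in LI the sexes went opposite ways, with 99.3 CPM in female positive against 61.3 CPM in female negative FB and 37.8 CPM in male positive against 66.9 CPM in male negative FB.

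**Figure D4:**
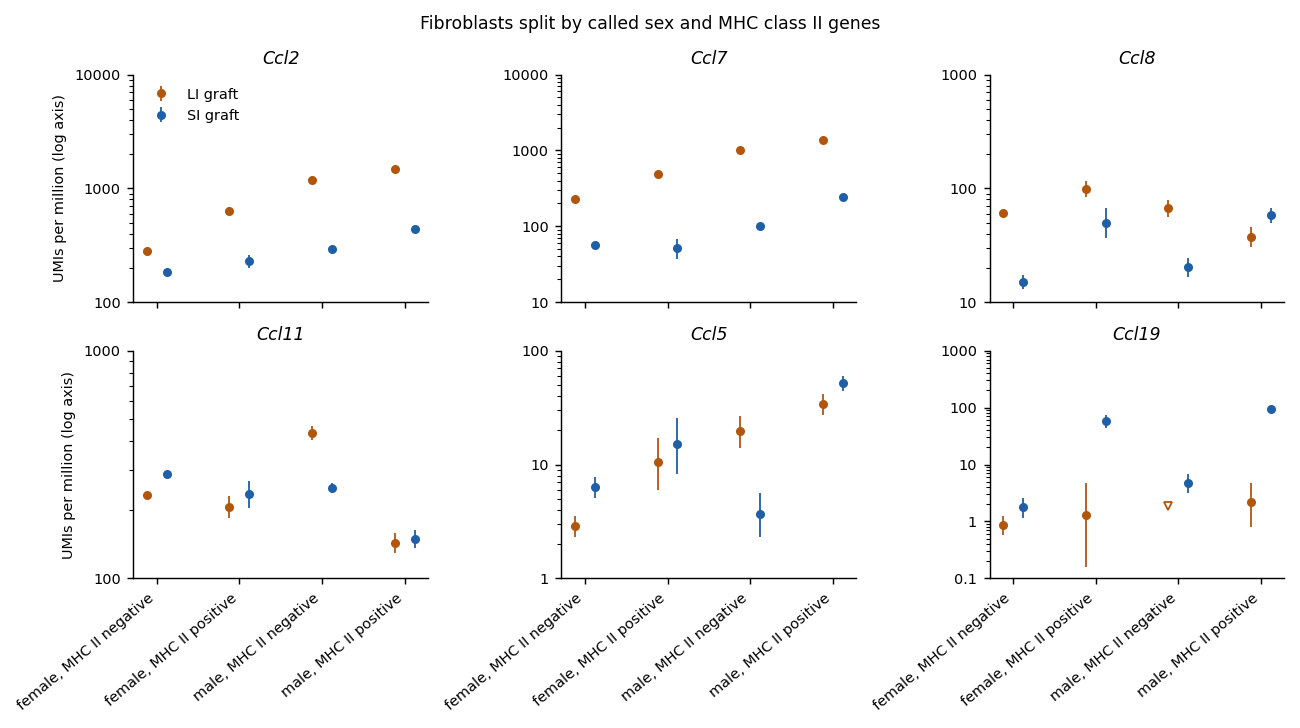
CC chemokine levels (CPM, log axes that differ between panels) in FB divided by called sex and MHC class II genes, in the LI graft (orange) and SI graft (blue), with exact 95% intervals for counting error and an open triangle at the upper limit where no UMI was counted. Ccl2 in LI lies at 284 and 639 in female FB and at 1190 and 1465 in male FB, and Ccl19 in SI at 1.78 and 4.77 in MHC class II negative FB and at 57.6 (10.9 without 1 cell) and 95.02 in positive FB.

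The contrast of sexes also differed between FB classes. LI Grem1 FB called male had 1537 CPM of Ccl2 and 1361 CPM of Ccl7, where those called female had 106 and 177 CPM. In LI adventitial-like FB the order was turned, with 973 against 1428 CPM of Ccl2 and 1048 against 1225 CPM of Ccl7. It was not turned in SI adventitial-like FB, with 737 against 369 CPM of Ccl2 and 283 against 157 CPM of Ccl7. Ccl11 also differed by class, with 273 CPM in male and 92.4 CPM in female LI Grem1 FB, but 157 and 371 CPM in LI adventitial-like FB (93.4 CPM in male cells without 1 cell) and 111 and 195 CPM in SI Grem1 FB. Among pericytes with a called sex, Ccl5 was found almost wholly in male cells, at 358 CPM against 1.96 CPM in LI (48 male cells) and 127 against 1.30 CPM in SI. The LI male value came from 110 UMIs in 5 cells, of which 1 cell held 92, and without it the level was 60.5 CPM. Of the 27 SI pericytes with at least 2 Ccl5 UMIs, 16 were called male, 1 female and 10 could not be called.

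Co-occurrence of the genes in single FB was counted after thinning to 2000 UMIs, against the number expected if the genes were independent. Ccl2 and Ccl7 occurred together in 390 LI FB where 80.6 were expected (4.84-fold) and in 110 SI FB where 36.5 were expected (3.01-fold). In LI, 53.0% of FB with Ccl7 also had Ccl2, against 5.69% of FB without it. Ccl8 occurred with Ccl11 at 2.23 times the expected number in LI and 1.503 times in SI, and with Ccl2 at 1.34 and 1.57 times. Ccl5 and Ccl19 shared 14 SI FB where 1.40 were expected (9.97-fold), while Ccl11 and Ccl5 in SI were at 0.853 of the expected number. Over all 15 pairs, 8 in LI and 7 in SI were at 2-fold or more. Cells that differ in class or state raise such counts together, and their part was not tested.

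The FB that held a chemokine differed in what else they expressed. In LI, the 777 FB with at least 2 Ccl2 UMIs had a summed level of 5249 CPM for 8 NF-kB targets (Nfkbia, Nfkbiz, Tnfaip3, Relb, Icam1, Vcam1, Il6 and Cxcl1), against 1491 CPM in FB without Ccl2, and in SI the sums were 5321 and 2318 CPM. Of these LI cells 26.5% were MHC class II positive, against 5.68% of FB without Ccl2. Cells with at least 2 Ccl2 UMIs also had more Cxcl9, with 852 against 134 CPM in LI and 2134 against 394 CPM in SI. In SI, the 70 FB with at least 2 Ccl19 UMIs were MHC class II positive in 75.7% against 10.7%, and had 6521 against 566 CPM of Cxcl9. Their NF-kB targets summed to 5937 against 2809 CPM. The FB with Ccl5 were similar, with 54.3% of 46 LI cells and 68.3% of 63 SI cells positive. Unlike the pericytes with Ccl5, these SI cells held 7 UMIs of the T and NK list, 13.2 CPM against 1.52 CPM in FB without Ccl5. The 46 LI cells held 1 such UMI, 2.18 CPM against 2.49 CPM. For Ccl11 the difference was slight, with 9.30% against 7.93% in LI and 10.8% against 12.6% in SI. Its cells also had more of the NF-kB targets in LI (3811 against 1741 CPM), and the difference was smaller in SI (3292 against 2741 CPM). Cells with Ccl2 were deeper than those without, with medians of 9997 and 5022 UMIs in LI.

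Over the 16 points of 8 classes and both libraries, the levels of Ccl2 and Ccl7 had a Pearson correlation of 0.68 on the scale of log2 CPM plus 1, and those of Ccl19 had 0.66 with both Ccl11 and Ccl5. Ccl2 and Ccl8 had 0.09, and Ccl8 and Ccl19 had -0.28. Among 10851 genes, the closest patterns to Ccl2 were those of Gngt2 (0.92), Ifi204 (0.90) and Gm12840 (0.90). Ccl7 was closest to Bcat1, Timp1 and Mpp6 (0.94 each), Ccl8 to Pcsk5 (0.91), Fscn1 (0.90) and Rbms3 (0.87), and Ccl11 to Cyp7b1 (0.88), Tagln2 (0.84) and Igfbp7 (0.84). For Ccl5 these were Tmem38b (0.90), Prkar1b (0.88) and Nup133 (0.86), and for Ccl19 Pycard (0.89), Ifi47 (0.86) and Fam107b (0.85). The points of a library share cells' depth and kit, and these values are descriptions.

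Interferon-inducible genes around the 6 members differed unequally between the grafts. Cxcl10 had 518 CPM in LI FB and 1882 CPM in SI FB, and Cxcl9 had 286 and 717 CPM, the direction of Ccl19 and the opposite of Ccl7. Gbp2 (87.5 and 231 CPM, log2 ratio -1.39) and Gbp4 (16.3 and 56.1 CPM, -1.72) also lay past 2-fold towards SI, whereas Irf1 (-0.96), Irf7 (-0.59), Ifit3 (-0.42), Ifit1 (-0.09) and Isg15 (-0.04) did not. None of the 8 NF-kB targets (median -0.36) and none of 10 immediate early genes (median -0.04) passed 2-fold. Among the CC chemokine receptors, the scavenging receptor Ackr4, which binds CCL19, had 14.1 CPM in LI and 82.9 CPM in SI (log2 ratio -2.47), although it is also a marker of the Grem1 list. Ccrl2 had 26.7 and 56.1 CPM, and Ackr3 24.2 and 22.5 CPM. The signalling receptors Ccr2 (0.253 and 0.256 CPM) and Ccr7 (0.0689 and 0.0958 CPM) were near 0 in FB. Of the 18 other CC chemokines only Ccl27a reached 10 CPM in FB, with 22.9 and 17.8 CPM, while Ccl12, which lies between Ccl11 and Ccl8, had 1.88 and 1.501 CPM.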

How the data were processed

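MSC from LI and SI grafts were profiled by single-cell RNA-seq in 1 library each. The deposited files hold raw counts of UMIs per gene and cell barcode, which the authors made with Cell Ranger 3.1.0 on mm10 per the submitters' processing notes (Seurat 3 is also named there), and which were used without rescaling. No column of another sample was present. Barcodes with under 500 genes or over 10% mitochondrial UMIs were left out, which kept 85.3% of 11568 LI and 82.1% of 9631 SI barcodes (63348069 and 54918006 UMIs in all). A cell joined a non-fibroblast class with at least 50% of its markers detected, or FB with at least 50% of FB markers and no other list above 25%, and ties stayed ungated. FB subsets needed 3 markers. No doublets were removed, and removal of the highest Scrublet scores was an alternative. Classes under 50 cells in either library were left out of the order of classes, and smaller subsets of pericytes are given with their cell numbers.

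Counts were summed per class and library and scaled to CPM by the total UMIs of those cells. Intervals were exact Poisson, Clopper-Pearson or binomial intervals at 95%, and PCR, kit and animal variation lie outside them. Ratios used CPM plus 1 and genes of at least 10 CPM in 1 group, and 2-fold was the limit of size. No test was run. Shares were given after thinning cells to 2000 UMIs. All 6 members are named in each class, listed pathway genes where they reach 10 CPM in 1 class or bear on a member, and the 3 genes of closest pattern per member. Ccr2, Ccr7, Ccl12 and Bst1 are below that level and were named for their relation to members. The members and lists were chosen with earlier results of these data known. Gate, filter, doublet, cluster, sex, thinning and scaling alternatives were run, and the sum with Gm2564 and the pericyte and per-gene MHC class II ratios and levels without the highest cell were added after seeing the data. The scripts were tested on simulated data (Python 3.11.15, numpy 2.4.6, scipy 1.17.1, scanpy 1.11.5). Some listed genes, and the list results that need them, are not reported here.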

Additional observations from a re-analysis of the deposited data

Results flagged for a closer look

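Ccl19 moved in opposite directions in the LI and SI grafts under 3 contrasts within a class, and none of these differences was tested, since each library stands for 1 sample. Between adventitial-like FB and the remaining FB its log2 ratio was 0.96 in LI and -2.01 in SI. The LI levels behind it, 2.68 and 0.887 CPM, lie below 10 CPM and below the 5.31 CPM of LI barcodes under 500 genes. Neither level therefore stands above those barcodes, whose makeup was not tested. Between pericytes with and without Myh11, a gene shared by smooth muscle and mural cells, it was 1.14 in LI and -0.89 in SI. Between MHC class II positive and negative pericytes it was 1.87 in SI and -3.91 in LI, where the 27 positive cells held 0 Ccl19 UMIs (in SI, 1 of 40 positive cells held 51 of 89), so that this LI value depends on the added 1 CPM. Of the LI pericytes with Myh11, 1 cell held 17 of 37 Ccl19 UMIs, and without it their level was 14.2 CPM in place of 26.0 CPM, against 11.2 CPM in those without Myh11. Ccl19 and Gm2564 UMIs are uncertain in each of these.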

How the results depend on the processing

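With 1 library per graft no replicate could be left out, and no paired analysis was possible because the groups hold 1 library each. The counts of members past 2-fold towards LI, and of co-detected pairs (15 at 2000 UMIs, 17 at 1000 UMIs), stayed within 1.5 times under the alternatives run, although in male cells Ccl2 took the place of Ccl8 towards LI. Towards SI, the count of 1 (Ccl19) became 0 in cells called female, where neither library reached 10 CPM, and 0 without the 1% of cells with the most UMIs of each member. The count of genes with the same leading class fell from 4 to 1 in cells called male, where 5 of the 8 classes, pericytes included, were left out of the order as under 50 cells, so that this count compares 3 classes. The count past 2-fold in MHC class II positive FB of both libraries fell from 2 to 1 in female cells and 0 in male cells. Of ratios past 2-fold, 2 ratios by MHC class II changed sign. These were the Ccl7 ratio in SI FB (-0.15 in female cells, with overlapping intervals) and the Ccl19 ratio in LI FB (-0.84 when thinned to 2000 UMIs, main value 1.03). In FB, the log2 ratio of LI over SI ranged from 1.43 to 2.96 for Ccl7, 0.64 to 1.74 for Ccl8, 0.22 to 1.86 for Ccl2, -0.31 to 0.28 for Ccl11, -1.64 to 0.36 for Ccl5 and -3.87 to -1.63 for Ccl19. Smaller ratios that changed sign were those of Ccl11 and Ccl5 in FB (main values -0.14 and -0.28) and of Ccl5 in pericytes (-0.73, but 0.36 in female and 1.49 in male cells), and of Ccl8 by MHC class II in LI FB (0.0056). In pericytes, Ccl5 ranged from -3.14 to 1.49, Ccl7 from 0.00 to 3.62, Ccl2 from -2.01 to -0.74 and Ccl19 from -2.75 to -0.01. The causes were not tested. Of all single values, 195 stayed within counting error and 149 moved beyond it.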
